A study of Mus musculus with 48 samples.

Results

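The genes described here are 10 genes of epithelial junctions, keratin filaments and epithelial surfaces (Msln, Cldn3, Cldn4, Krt23, Krt8, Krt18, Prom2, Pof1b, Epcam and Cdh1), taken by symbol from the 34591 genes counted in 48 RNA-seq libraries of a Myc-driven mouse model of Group 3 medulloblastoma, a tumor of the cerebellum. They were chosen by their levels in tumors of line 19251 that overexpress the transcriptional repressor Gfi1 (Gfi1 OE), where most of them were high, so their levels in Gfi1 OE and control libraries are given as a description, without a test. Tests on these genes were made in the other groups.

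Per the labels, tumorsphere cells were infected with retroviral vectors, sorted for RFP and GFP, expanded and placed in the cortex of CD-1 nu/nu mice, and the recorded genotype is p53-/-;p18-/- in 44 libraries and WT in 4. Line 19251 gave 8 Gfi1 OE and 6 control libraries. A first set held Ezh2 KO and Cas9 libraries (3 each) of lines 19251, 19554 and 19568. A second set came from line 19568 and comprised 3 libraries each of Ezh2 KO + Ezh2 OE, Ezh2 KO, Ezh2 OE and Cas9, and 4 further libraries were labelled WT GNP Myc Gfi1, from granule neuron precursors (the WT GNP libraries). The labels do not say which libraries come from separate animals, so p-values measure the spread between libraries, which may in part be technical. Nu/nu mice lack mature T cells and keep B cells and other host cells. A bulk library holds tumor and host cells, and more RNA per cell cannot be told apart from more cells of a type.

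Epithelial cells are joined by tight junctions, built on claudins, and by adherens junctions, built on E-cadherin. Their inner scaffold is made of keratin filaments, in which a type I keratin such as Krt18 pairs with a type II keratin such as Krt8. Repressors of the Snail and Zeb families silence many of these genes in mesenchymal cells through the E-box CAGGTG. Neurons and glia do not form such junctions in the way that simple epithelia do.

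Cldn4 and Cldn3 are adjacent protein-coding genes on chromosome 5, and Krt8 and Krt18 are adjacent protein-coding genes on chromosome 15. RefSeq promoter sequences (build GRCm38.p6, 250 bases before to 50 after the start) matched 8 of the 10 genes. Those of both pairs are shown because the partners lie next to each other, and that of Epcam because its levels overlapped between the groups. The E-box CAGGTG, on either strand, is in capitals.
Cldn4 (chr5:134946885-134947184, minus strand): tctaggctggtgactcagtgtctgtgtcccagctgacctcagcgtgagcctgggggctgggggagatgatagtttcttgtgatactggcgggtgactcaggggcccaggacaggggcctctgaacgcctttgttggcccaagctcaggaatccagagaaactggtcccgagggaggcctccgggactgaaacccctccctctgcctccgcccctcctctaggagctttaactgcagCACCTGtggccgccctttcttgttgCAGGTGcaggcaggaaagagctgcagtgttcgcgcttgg
Cldn3 (chr5:134985964-134986263, plus strand): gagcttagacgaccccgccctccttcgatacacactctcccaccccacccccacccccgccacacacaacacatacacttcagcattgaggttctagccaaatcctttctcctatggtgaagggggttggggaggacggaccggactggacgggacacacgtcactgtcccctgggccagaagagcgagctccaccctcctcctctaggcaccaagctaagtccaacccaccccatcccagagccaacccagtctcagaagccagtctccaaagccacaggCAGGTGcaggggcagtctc
Krt8 (chr15:102004293-102004592, minus strand): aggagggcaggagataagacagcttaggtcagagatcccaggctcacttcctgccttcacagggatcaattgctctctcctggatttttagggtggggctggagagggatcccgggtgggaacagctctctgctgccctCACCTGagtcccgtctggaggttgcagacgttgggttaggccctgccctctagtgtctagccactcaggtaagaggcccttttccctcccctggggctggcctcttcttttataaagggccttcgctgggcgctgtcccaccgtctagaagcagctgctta
Krt18 (chr15:102027966-102028265, plus strand): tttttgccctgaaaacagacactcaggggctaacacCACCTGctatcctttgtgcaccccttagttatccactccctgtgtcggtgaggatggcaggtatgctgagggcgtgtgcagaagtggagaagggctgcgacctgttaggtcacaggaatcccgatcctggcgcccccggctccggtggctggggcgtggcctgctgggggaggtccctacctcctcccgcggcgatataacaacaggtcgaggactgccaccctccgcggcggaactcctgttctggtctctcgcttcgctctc
Epcam (chr17:87635729-87636028, plus strand): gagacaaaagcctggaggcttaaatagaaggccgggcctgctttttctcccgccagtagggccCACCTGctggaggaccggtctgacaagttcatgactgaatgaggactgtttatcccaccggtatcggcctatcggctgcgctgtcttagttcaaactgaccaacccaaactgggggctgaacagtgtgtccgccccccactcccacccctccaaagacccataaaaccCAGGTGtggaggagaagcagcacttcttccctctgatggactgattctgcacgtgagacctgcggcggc
CAGGTG was found on either strand in 7 of the 8 promoters (Cldn4, Cldn3, Krt23, Krt8, Krt18, Epcam and Pof1b), against 20.2% of 32851 RefSeq promoters of the same length. AAATCAC, the core of the Gfi1 motif, was in 0 of the 8 and in 3.2% of all promoters, and AACCNGTT, the grainyhead motif, was in 0 of the 8 and in 2.09% of all, both searched on either strand. With no match of the other motifs in these windows, there is no overlap between motifs. A match is a description of letters and not a site.

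Levels are given as CPM, counts scaled to the library's total on genes. Library totals on genes lay between 2687641 and 94733334 (median 29416585), and 2687641 belongs to Gfi1 OE replicate 5, in which 71.6% of reads were not aligned. Gfi1 had 107 to 592 CPM in the 8 Gfi1 OE libraries and at most 0.273 CPM in the 6 controls, so the labels hold there. In the WT GNP libraries it had 0.829, 0.433, 0.39 and 0.232 CPM, so its level does not bear out the Gfi1 in their label. Those libraries held 14.6 to 19.2 CPM over 6 granule lineage markers, with no Atoh1 count. Library 19251 Cas9 replicate 1 of set 1 also stands apart, with 26.2 CPM over 6 cell cycle genes, against 2410 and 2540 CPM in the other libraries of its group. In set 2, the library labelled Cas9 replicate 1 had 5130 CPM of Ezh2 and that labelled Ezh2 KO + Ezh2 OE replicate 3 had 101 CPM. The number in the title of each of these 2 contradicts that of its file, and both were left out of the tests. Ezh2 RNA was not called in Ezh2 KO over the 3 lines of set 1 (log2 change -0.31, SE 0.17, adjusted p 0.699), so its level does not check those labels. In set 2 it fell in Ezh2 KO (log2 change -0.95, adjusted p 0.00416) and rose in Ezh2 OE (log2 change 4.49, adjusted p 1.07e-05), both against Cas9, and rose in Ezh2 KO + Ezh2 OE against Ezh2 KO (log2 change 6.89, adjusted p 1.56e-07).

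Of the surface and tight junction genes, Msln, the surface protein mesothelin of the mesothelium, had 48.3, 27.6, 46.8, 82.3, 39.4, 48.8, 34.1 and 56.2 CPM in Gfi1 OE replicates 1 to 8, against 0.135, 0.0531, 0.0677, 0.0835, 0.0693 and 0.342 CPM in control replicates 1 to 6. Every Gfi1 OE library was above every control, and the mean of 47.9 ± 16.6 CPM (SD, n = 8) was 383 times the control mean of 0.125 ± 0.11 CPM (SD, n = 6). Cldn4, a claudin of tight junctions, had 15.3, 12.9, 8.73, 15.8, 21.2, 8.12, 5.3 and 8.71 CPM in Gfi1 OE, against 1 count in all in the 6 controls. The ratio of pooled CPM was 2500, with a 95% counting interval of 448 to 98700 that covers counting error only.

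Cldn3, the neighbouring claudin, had 29.6, 20.4, 23.3, 8.99, 11.9, 8.83, 11.7 and 14.2 CPM in Gfi1 OE, against 0.135, 16.4, 0.305, 2.98, 0.0346 and 0.137 CPM in control. Control replicate 2 stood at 16.4 CPM, so 3 of 8 Gfi1 OE libraries were above every control, and the medians were 13 CPM in Gfi1 OE and 0.221 CPM in control. Pof1b, an actin-binding protein of epithelial junctions, had 77.3, 63.4, 54.6, 35.3, 0.372, 63.2, 40.0 and 45.4 CPM in Gfi1 OE, against 0.18, 0.0531, 0.271, 0.139, 0.0346 and 0.0684 CPM in control. The value of 0.372 CPM is 1 count in replicate 5, the library of 2687641 counts. In that library Msln had 106 counts, Krt8 594 and Prom2 81, at CPM within the range of the other Gfi1 OE libraries. Why Pof1b was low there was not tested. Without replicate 5 the Gfi1 OE mean was 54.2 ± 14.9 CPM (SD, n = 7), against 47.4 ± 23.5 CPM with it (SD, n = 8).

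Among the keratins, Krt8, the type II keratin of simple epithelia, had 177, 113, 179, 314, 221, 127, 128 and 141 CPM in Gfi1 OE, against 6.29, 2.89, 1.76, 23.2, 2.94 and 0.41 CPM in control. Krt18, its type I partner, had 34.7, 18.4, 11.5, 9.23, 19.3, 7.98, 7.65 and 9.7 CPM in Gfi1 OE, against 0.428, 0.212, 0.406, 2.81, 0.0693 and 0 CPM in control. Neither keratin overlapped between the groups, and control replicate 4 was the highest control for both. A pseudogene of Krt8 is annotated, and how the counting split reads between near-identical copies is not given in the sources used here. Krt23, a type I keratin, had 7.44, 4.14, 7.77, 2.74, 2.98, 8.97, 2.8 and 5.18 CPM in Gfi1 OE, against 1 count over the 6 controls. Its pooled ratio was 1230, with a 95% counting interval of 221 to 48600.

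Prom2, a protein of plasma membrane protrusions, had 40.7, 47.7, 25.3, 20, 30.1, 27.3, 16.0 and 26.3 CPM in Gfi1 OE, against 0.608, 0.832, 1.79, 5.6, 0.797 and 1.03 CPM in control. The groups did not overlap, and the ratio of means was 16.4. Epcam and Cdh1, the epithelial adhesion molecule and E-cadherin, overlapped between the groups. Epcam had 4.54, 4.0, 1.89, 4.32, 3.35, 2.35, 2.32 and 2.15 CPM in Gfi1 OE, against 2.84, 0.956, 2.54, 2.67, 0.935 and 4.85 CPM in control, with 0 of 8 Gfi1 OE libraries above every control. Cdh1 had 0.623, 0.88, 0.214, 4.99, 1.49, 1.04, 0.369 and 1.54 CPM in Gfi1 OE, against 0.293, 0.142, 0.305, 0.167, 0 and 0.957 CPM in control, and 4 of 8 Gfi1 OE libraries were above every control.

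In all, 7 of the 10 genes did not overlap between Gfi1 OE and control, and 7 of 10 also without replicate 5. Of all genes tested in that comparison, 24.6% passed an adjusted p of 0.05 in edgeR's quasi-likelihood test, 11.1% higher and 13.5% lower in Gfi1 OE. The share at an unadjusted p under 0.05 was 36.5%. These shares are of genes called and not of genes without overlap, a share that was not computed over all genes. Since this contrast also chose the genes, nothing is read from the count. The highest library differed between genes: Gfi1 OE replicate 1 was the highest for 4 genes, and replicate 4 for 3. The ranking was shared in part. Replicate 1 ranked 1 to 4 among the 8 libraries for every gene but Cdh1 (rank 6), and replicate 7 ranked 6 to 8 for every gene. Just inside the pattern stood Pof1b, whose lowest Gfi1 OE library had 0.372 CPM (1 count) and whose highest control had 0.271 CPM, and Krt18, with 7.65 and 2.81 CPM. Outside it stood Cldn3, with 8.83 CPM in its lowest Gfi1 OE library and 16.4 CPM in its highest control.

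**Figure D1:**
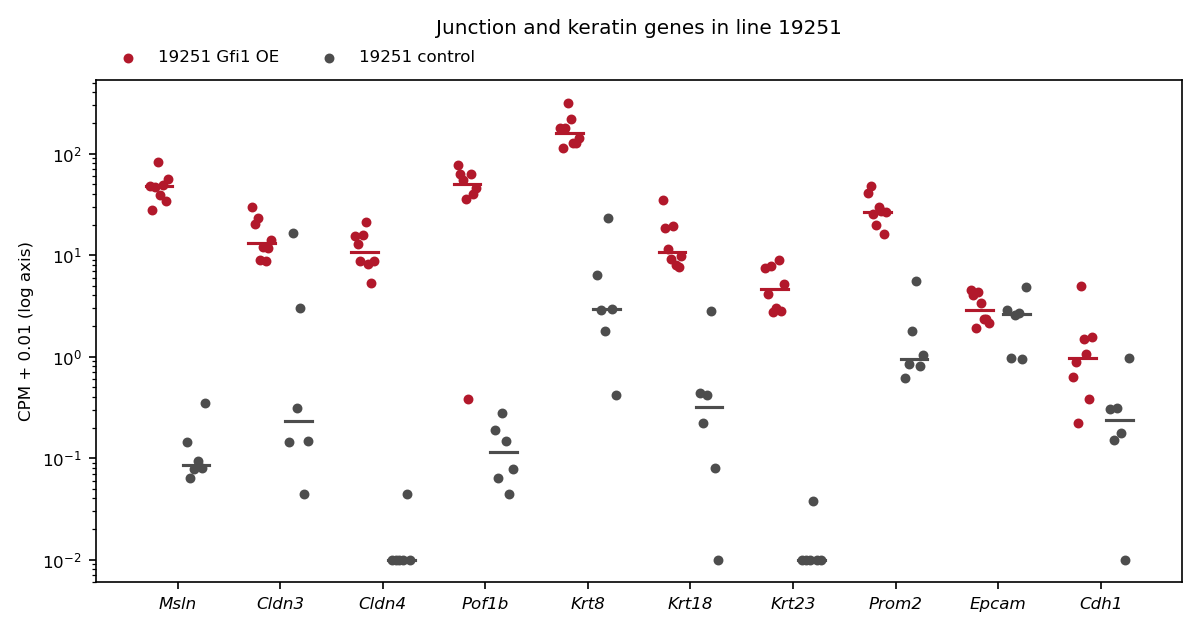
Level of each of the 10 genes in the 8 Gfi1 OE libraries (red, left) and the 6 control libraries (grey, right) of line 19251, as CPM + 0.01 on a log axis, with 1 point per library and a line at the median. For 7 genes all red points lie above all grey ones, while Cldn3, Epcam and Cdh1 overlap.

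Marker lists of other cell types were set beside these values. Mesothelial markers (6 genes, Muc16 without counts in control) summed to 0.0356 to 6.7 CPM in Gfi1 OE and 0.104 to 0.889 CPM in control, choroid plexus markers (8 genes) to 3.69 to 16.4 CPM in Gfi1 OE and 2.39 to 60.4 CPM in control, and ependymal markers (6 genes) to 2.64 to 11.5 CPM in Gfi1 OE and 1.44 to 5.46 CPM in control. The medians were 0.469 CPM in Gfi1 OE and 0.208 CPM in control for mesothelium. B cell markers (6 genes) moved with the group, at 15.6 to 41.4 CPM in Gfi1 OE and 0.835 to 5.13 CPM in control, and granule lineage markers (6 genes) summed to 66.2 to 135 CPM in Gfi1 OE and 177 to 281 CPM in control. The granule lineage markers did not move together: Zic1 had 20.1 to 47.5 CPM in Gfi1 OE and 66.1 to 176 CPM in control, while Zic2 had 15.6 to 58.3 CPM in Gfi1 OE and 13.8 to 33.9 CPM in control, its lowest Gfi1 OE library being replicate 5. The highest mesothelial sum in Gfi1 OE was also that of replicate 5. The part of these cells in the levels above was not tested.

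Other genes of the same structures came from lists of 75 genes, of which 44 passed the filter on low counts. In Gfi1 OE 6 of the 44 rose and 12 fell, with a median log2 change of -0.17, against -0.03 over all genes tested. Tight junction genes split, with 3 of 12 higher, 2 lower and a median of 0.44. Tjp3, a scaffold protein of tight junctions, had 6.62 to 15.5 CPM in Gfi1 OE and 0.0346 to 2.23 CPM in control, without overlap (log2 change 3.68, SE 0.68, adjusted p 0.00123). Cldn9, another claudin, was higher as well (log2 change 2.61, SE 0.79, adjusted p 0.0249), and Cgn, the scaffold cingulin, fell (log2 change -2.23, SE 0.65, adjusted p 0.0205).

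Of 11 adherens junction and desmosome genes 1 rose and 2 fell, with a median of 0.01. Jup, plakoglobin of both junction types, rose (log2 change 1.11, adjusted p 0.00923), while Ppl, the desmosomal plaque protein periplakin, fell (log2 change -2.6, adjusted p 0.0119), as did Ctnna1, alpha-catenin (log2 change -0.85, adjusted p 0.00707). Of 3 tested keratins 1 rose, Krt7 (log2 change 3.39, adjusted p 0.00872). It had 0.178 to 4.46 CPM in Gfi1 OE and 0 to 0.342 CPM in control. The highest value is that of replicate 5, the library of 2687641 counts, and the next was 0.937 CPM. Among 6 surface and protease genes Spint2, an inhibitor of surface serine proteases, rose to 6.23 to 20.6 CPM in Gfi1 OE, against 0.485 to 3.35 CPM in control (log2 change 2.78, adjusted p 0.000243), and 3 fell: Rab25, a GTPase of epithelial vesicle traffic (log2 change -2.18, adjusted p 0.00336), the surface mucin Muc1 (log2 change -1.32, adjusted p 0.0306) and Ezr, ezrin, which ties actin to the membrane (log2 change -1.04, adjusted p 0.0175). Of 5 epithelial regulators 1 fell, Klf4 (log2 change -2.07, adjusted p 0.033), and 0 rose.

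Of 7 mesenchymal genes 4 fell and 0 rose, with a median of -1.7. Vim, the filament protein vimentin, had 61.9 to 152 CPM in Gfi1 OE and 253 to 931 CPM in control, without overlap (log2 change -2.44, SE 0.29, adjusted p 3.65e-05). Fn1, fibronectin, had 13.8 to 131 CPM in Gfi1 OE and 102 to 400 CPM in control (log2 change -2.15, adjusted p 0.00169), and Cdh2, N-cadherin, fell by 1.7 on the log2 scale (adjusted p 0.00179). Zeb2, a repressor that binds the E-box, had 38.6 to 88.3 CPM in Gfi1 OE and 78.3 to 201 CPM in control (log2 change -1.02, adjusted p 0.00188). Vim and Fn1 are also made by vessels and meninges, whose markers summed to 35 to 82 CPM (endothelium) and 29.8 to 707 CPM (meninges) in Gfi1 OE, against 30 to 87.9 CPM and 46.5 to 233 CPM in control. The meningeal markers did not move together. Lum had 0 to 26 CPM in Gfi1 OE and 7.48 to 33.1 CPM in control, while Slc6a13 had 8.56 to 66.4 CPM and 0.23 to 10.6 CPM. The sum of 707 CPM is replicate 4, with 419 CPM of Ptgds. The part of these cells was not tested.

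**Figure D2:**
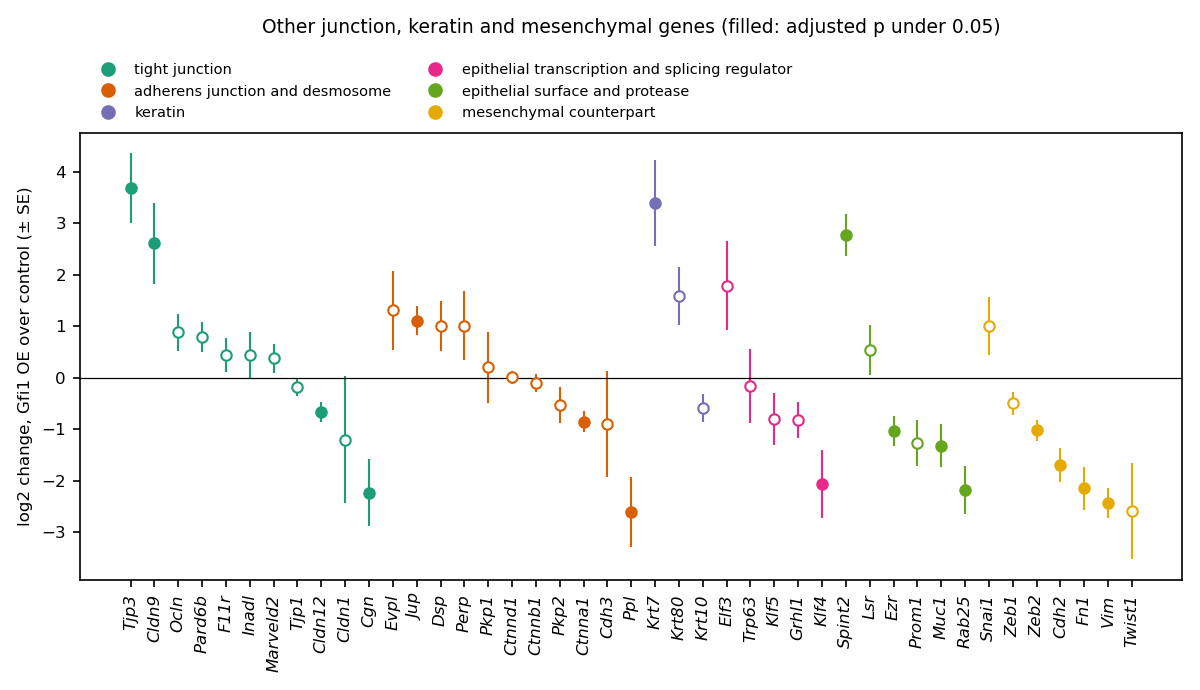
Log2 change of 43 of the 44 tested other genes in Gfi1 OE over control (8 and 6 libraries), coloured by list, with bars of 1 SE and filled points for an adjusted p under 0.05. Of the filled points 5 lie above 0 and 12 below, and all 4 filled mesenchymal genes lie below.

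Outside Gfi1 OE most of the 10 genes were near the detection limit. Over the other 40 libraries Cldn4 had 0 counts in 22, Krt23 in 30 and Cldn3 in 16, and the highest levels were 0.832 CPM for Msln, 0.512 CPM for Cldn4 and 0.239 CPM for Krt23. No other library reached the lowest Gfi1 OE library for Msln, Cldn4, Krt23, Krt8, Krt18 or Prom2. By group median, Epcam was highest in the WT GNP libraries (5.68 CPM), followed by Ezh2 KO of line 19568 in set 1 (4.58 CPM). Pof1b had 4.53, 2.08, 2.11 and 2.01 CPM in the WT GNP libraries, all above the 6 controls of line 19251, and Epcam had 5.36, 6.33, 5.76 and 5.61 CPM there. Cldn3 had no counts in those 4 libraries.

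Msln had 0.0952, 0 and 0.399 CPM in Ezh2 KO of line 19251, against 0.832, 0.0469 and 0.0593 CPM in Cas9. In set 2 it had no counts in the 3 Ezh2 KO libraries and 0.129 and 0.127 CPM in Cas9 replicates 2 and 3. The groups of line 19251 overlapped. Cldn4 had 0.0914, 0.0254 and 0.512 CPM in Ezh2 KO of line 19554 and no counts in its 3 Cas9 libraries.

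Cldn3 varied widely between libraries of 1 group. In line 19251 it had 1.36, 0.271 and 5 CPM in Ezh2 KO, against 0.0378, 0.563 and 0.928 CPM in Cas9. In line 19554 it had 0.0305, 2.92 and 0.0683 CPM in Ezh2 KO, against 0.518, 2.54 and 0.263 CPM in Cas9. Both pairs of groups overlapped. In line 19568 the highest of 18 libraries had 0.0786 CPM and the median was 0, against a median of 0.412 CPM in the 18 libraries of the other lines without Gfi1 OE.

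Krt8 stayed under 1 CPM in the set 1 libraries of lines 19554 and 19568. It had 0.213, 0.305 and 0.41 CPM in Ezh2 KO of line 19554, against 0.122, 0.443 and 0.701 CPM in Cas9. It had 0.283, 0.464 and 0.112 CPM in Ezh2 KO of line 19568, against 0.412, 0.109 and 0.526 CPM in Cas9. The groups overlapped in both lines. Krt18, its partner, had 0.127, 0.361 and 1.27 CPM in Ezh2 KO of line 19251, against 0.189, 0.188 and 0.237 CPM in Cas9, where Krt8 had 0.0378, 30.9 and 32.8 CPM.

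**Figure D3:**
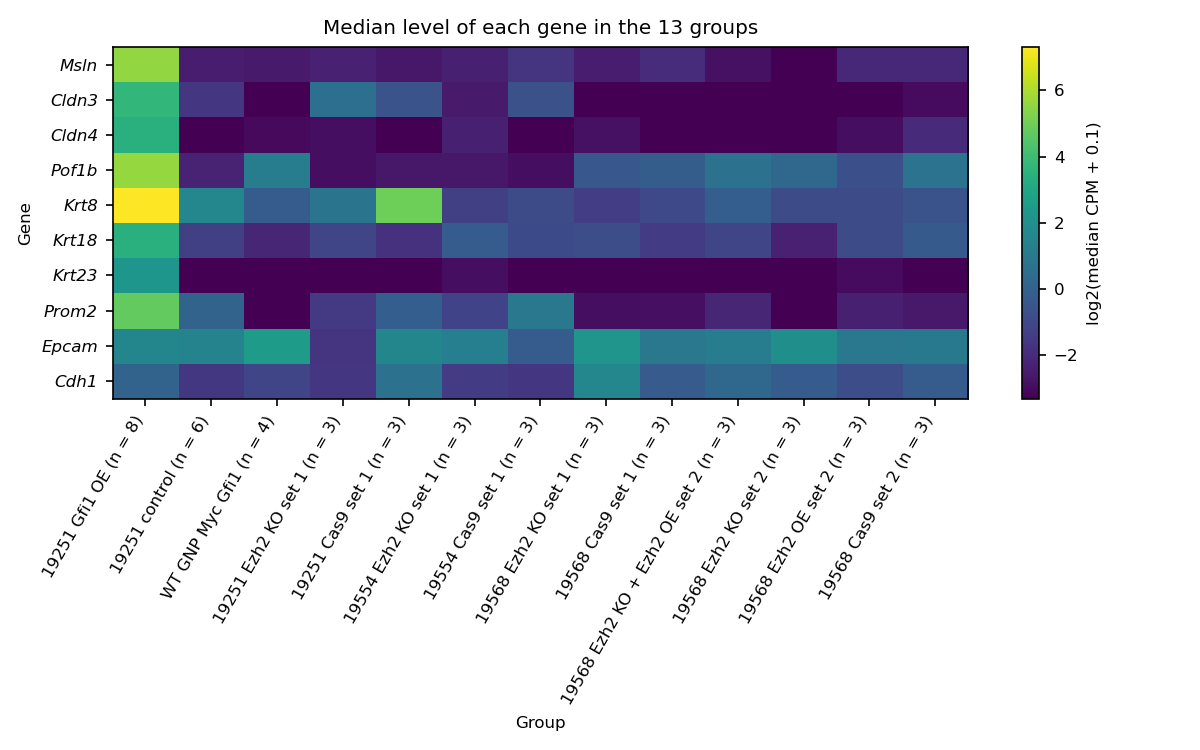
Median level of each gene (rows) in the 13 groups (columns, with the number of libraries), coloured by log2(median CPM + 0.1). All genes but Epcam and Cdh1 are brightest in the Gfi1 OE column, Krt23 the dimmest of them at a median of 4.66 CPM. Krt8 is next brightest in the Cas9 libraries of line 19251, at a median of 30.9 CPM.

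In the Ezh2 knockout tumors of set 1, Ezh2 being the methyltransferase of the Polycomb repressive complex 2, 0 of the 8 tested genes passed in the fit over 3 lines (edgeR; 1 had an unadjusted p under 0.05, and DESeq2 called 0), where 0.561% of 17635 genes were called, 0.499% higher and 0.0624% lower. Prom2 had the smallest p (log2 change -1.71, SE 0.79, adjusted p 0.595). It had 0.254, 0.15 and 0.435 CPM in Ezh2 KO of line 19251, against 0.0757, 0.797 and 3.93 CPM in Cas9, and 0.335, 0.305 and 0.512 CPM in Ezh2 KO of line 19554, against 2.74, 1.84 and 0.131 CPM in Cas9. The groups overlapped in each of these lines through 1 Cas9 library. In line 19251 it was replicate 1 (0.0757 CPM), the library that stands apart, and in line 19554 replicate 3 (0.131 CPM). Cldn4 and Krt23 did not pass the low-count filter. Of 52 other listed genes 2 rose and 0 fell: Cldn1, a claudin (log2 change 2.09, SE 0.44, adjusted p 0.0398), and Esrp1, an epithelial splicing regulator (log2 change 2.41, SE 0.47, adjusted p 0.0228). The fit with the replicate number as a block called 1 in place of 2, and leaving out single libraries gave 0 to 3, with 0 without Cas9 replicate 2 or Ezh2 KO replicate 2 of line 19554 or Cas9 replicate 3 of line 19568. The count also depends on how the filter groups the libraries: with 2 arms as groups Esrp1 alone was called and 4 of the 10 genes were tested, and with 6 groups both were called. Esrp1 had 3.1, 5.82 and 3.78 CPM in Ezh2 KO and 0.755, 1.09 and 0.421 CPM in Cas9 libraries of line 19568.

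The sign of the Epcam change differed by line. In line 19251 it had 0.19, 0.21 and 1.41 CPM in Ezh2 KO, against 1.74, 2.81 and 4.8 CPM in Cas9, without overlap. In line 19554 it had 0.579, 2.61 and 2.32 CPM in Ezh2 KO, against 0.64, 0.746 and 1.01 CPM in Cas9, and in line 19568 it had 4.84, 4.58 and 4.23 CPM in Ezh2 KO, against 1.82, 0.815 and 2.53 CPM in Cas9. In edgeR none of these passed: the log2 changes were -2.52 (SE 0.75, adjusted p 0.199), 1.21 (SE 0.72, adjusted p 0.7) and 1.39 (SE 0.72, adjusted p 1). The difference between lines had an unadjusted p of 0.00308 and an adjusted p of 0.401, and DESeq2 called Epcam in line 19251 (adjusted p 0.014). Without Cas9 replicate 1 of line 19251 the log2 change there was -2.76 (adjusted p 0.151).

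Cdh1 had the same signs as Epcam in lines 19568, 19251 and 19554. It had 3.21, 2.91 and 2.51 CPM in Ezh2 KO of line 19568, against 0.721, 1.96 and 0.737 CPM in Cas9 (log2 change 1.35, SE 0.81, adjusted p 1). In line 19251 it had 0.159, 0.451 and 0.218 CPM in Ezh2 KO, against 1.7, 0.188 and 1.48 CPM in Cas9 (log2 change -2.23, SE 0.86, adjusted p 0.229). These groups overlapped through Cas9 replicate 2 (0.188 CPM), and 1.7 CPM is replicate 1, the library that stands apart. In line 19554 Cdh1 had 0.274, 0.0762 and 0.854 CPM in Ezh2 KO, against 0.0915, 0.233 and 0.219 CPM in Cas9 (log2 change 1.14, SE 0.87, adjusted p 0.81). The groups overlapped there. Pof1b had 0.061, 0.0254 and 0.341 CPM in Ezh2 KO of line 19554, against 0.0305, 0.0466 and 0 CPM in Cas9 (log2 change 2.14, SE 0.82, adjusted p 0.391), which is at most 2 counts per Cas9 library. In line 19568 it had 0.629, 0.774 and 0.636 CPM in Ezh2 KO, against 0.789, 0.815 and 0.684 CPM in Cas9 (log2 change -0.17, SE 0.63, adjusted p 1). Krt8 overlapped in line 19251, at 1.62, 1.62 and 14.1 CPM in Ezh2 KO and 0.0378, 30.9 and 32.8 CPM in Cas9, where 0.0378 CPM is the library that stands apart. Within the lines 0 of 8 genes were called in edgeR (2, 1 and 0 had an unadjusted p under 0.05 in lines 19251, 19554 and 19568), where 0.259%, 0.481% and 0.027% of all genes were called, and 17%, 9.32% and 3.13% at an unadjusted p under 0.05. The count of genes called was 0 also without Cas9 replicate 1 of line 19251. For the difference between lines, 0 of 8 were called in edgeR, against 0.0162% of all genes, and 1 in DESeq2. Among the other listed genes Twist2, a mesenchymal transcription factor, was called in lines 19251 (adjusted p 0.000839) and 19554 (adjusted p 8.01e-05), where 0.454% of all genes were called higher, with 5.7, 6.02 and 6.32 CPM in Ezh2 KO of line 19554, against 0, 0.0233 and 0 CPM in Cas9. Twist1 was called in line 19554 as well (log2 change 5.64, adjusted p 0.0157). In that line the fit with the replicate number as a block called 1 of these genes in place of 2.

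The lines also differed at baseline. Pof1b was higher in the Cas9 libraries of line 19568 than in those of the other 2 lines (log2 change 4.03, SE 0.6, adjusted p 0.00123), where 4.25% of all genes were called, 3.07% higher and 1.17% lower, and 17.1% at an unadjusted p under 0.05. It had 23, 15 and 13 counts in line 19568, against 1, 2 and 3 counts in line 19251 and 1, 2 and 0 counts in line 19554, and over the alternatives that tested it the log2 change lay between 3.83 and 4.31. In the whole of line 19568 (18 libraries of both sets) it had 0.297 to 2.66 CPM, against 0 to 0.341 CPM in the 18 libraries of the other lines without Gfi1 OE. Prom2 had 0.0343, 0.163 and 0 CPM in Cas9 of line 19568, against 0.0757, 0.797 and 3.93 CPM in line 19251 and 2.74, 1.84 and 0.131 CPM in line 19554 (log2 change -4.6, SE 1.42, adjusted p 0.0891). Without 19251 Cas9 replicate 1 Prom2 (log2 change -4.89, adjusted p 0.0188) and Krt8 (log2 change -3.33, adjusted p 0.0206) were called, and Prom2 also without 19554 Cas9 replicate 3 (adjusted p 0.0416).

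Of 61 other listed genes 12 were higher and 1 lower in Cas9 of line 19568, with a median log2 change of 0.12, against -0.09 over all genes. Cldn1 had 43.6, 44.5 and 60.1 CPM in line 19568, against at most 0.719 CPM in the Cas9 libraries of the other lines (log2 change 6.83, adjusted p 1.73e-05). F11r of tight junctions, Ctnnb1 and Ctnnd1 of adherens junctions, and the serine protease Prss8 were higher too. So were the mesenchymal factors Snai1 (log2 change 3.46, adjusted p 0.00701), Snai2 (log2 change 2.77, adjusted p 0.0438) and Twist2 (adjusted p 8.19e-08), while Zeb1 was lower (log2 change -0.77, adjusted p 0.0446). Of the 6 mesothelial markers Bnc1 alone was high, at 25, 12.8 and 29.2 CPM in Cas9 of line 19568 and at most 0.341 CPM in Cas9 of the other lines, while the others had at most 0.163 CPM there and Muc16 had no counts. Granule lineage markers summed to 24.3 to 52.4 CPM in Cas9 of line 19568, against 33.2 to 278 CPM in line 19251 and 189 to 347 CPM in line 19554. The part of granule lineage cells in these levels was not tested.

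In set 2 the filter left 5 of the 10 genes (Krt8, Krt18, Pof1b, Epcam and Cdh1). In Ezh2 KO against Cas9 0 of 5 passed in edgeR (1 had an unadjusted p under 0.05, DESeq2 called 0), where 9.11% of all genes were called (5.88% higher and 3.23% lower), and 24.2% at an unadjusted p under 0.05. Krt18 had 0.0955, 0.0429 and 0.109 CPM in Ezh2 KO, against 0.193 and 0.714 CPM in Cas9 replicates 2 and 3 (log2 change -2.57, SE 0.83, adjusted p 0.0919; -1.16 without Cas9 replicate 3). In Ezh2 KO + Ezh2 OE it had 0.243 and 0.88 CPM in replicates 1 and 2, above all 3 Ezh2 KO libraries (log2 change 2.75, SE 0.82, adjusted p 0.137; 1.51 without replicate 2). In that comparison 0 of 5 were called in edgeR, 1 had an unadjusted p under 0.05, against 18.6% of all genes, and DESeq2 called 0. Both comparisons share the Ezh2 KO libraries. Epcam had 3.79, 2.96 and 3.9 CPM in Ezh2 KO, against 1.54 and 1.89 CPM in Cas9 (log2 change 0.94, SE 0.8, adjusted p 0.521). Pof1b, Cdh1 and Krt8 overlapped between Ezh2 KO and Cas9, with log2 changes of -0.08 (SE 0.58), 0 (SE 0.48) and -0.36 (SE 1.1). In Ezh2 OE Epcam had 10.5, 1.02 and 1.84 CPM and Krt8 had 2.54, 0.203 and 0.445 CPM, both highest in replicate 1. Cas9 replicates 2 and 3 had 1.54 and 1.89 CPM of Epcam and 0.193 and 0.561 CPM of Krt8.

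Of 55 other listed genes 2 rose and 5 fell in Ezh2 KO of set 2. Elf3, an epithelial transcription factor, had 1.59, 1.41 and 0.654 CPM in Ezh2 KO, against 8.3 and 10.2 CPM in Cas9 (log2 change -3.02, SE 0.44, adjusted p 0.00457). Perp, a desmosome protein (log2 change -2.09, adjusted p 0.0188), Tjp3 (log2 change -1.87, adjusted p 0.0132), Cdh3, P-cadherin (log2 change -1.46, adjusted p 0.0335), and Krt17 (adjusted p 0.0128) fell. Inadl, a tight junction scaffold, had 112, 83.7 and 85.9 CPM in Ezh2 KO, against 15.8 and 13 CPM in Cas9 (log2 change 2.63, SE 0.21, adjusted p 0.000323). In Ezh2 KO + Ezh2 OE it had 37.5 and 34 CPM and fell relative to Ezh2 KO (log2 change -1.34, adjusted p 0.0172), while F11r rose (log2 change 1.4, adjusted p 0.0178), where 1.21% of all genes were called (0.776% higher and 0.43% lower). For Ezh2 OE against Cas9, 0 of 5 genes and 0 of 55 other listed genes were called in edgeR, against 0.00566% of all genes. An unadjusted p under 0.05 was seen for 0 of the 5 and 1 of the 55, and DESeq2 called 0 of either.

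**Figure D4:**
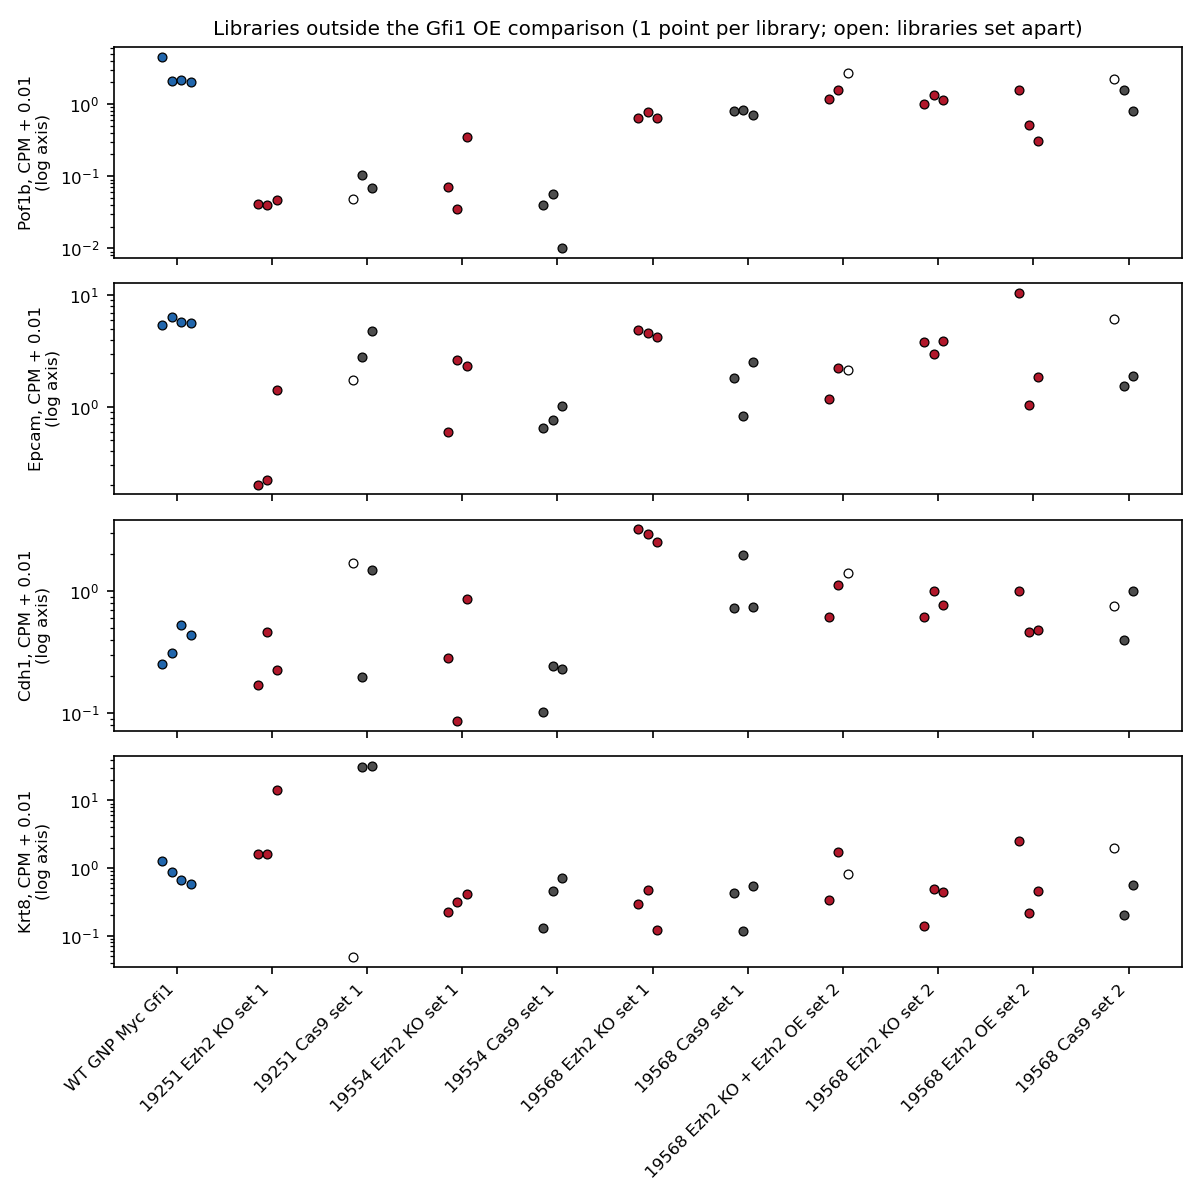
Pof1b, Epcam, Cdh1 and Krt8 in the groups outside the Gfi1 OE comparison, as CPM + 0.01 on log axes, with 1 point per library. Red marks knockout and overexpression libraries, grey Cas9, blue WT GNP Myc Gfi1, and open circles the 3 libraries that stand apart; Pof1b is higher in line 19568 (0.297 to 2.66 CPM) than in most libraries of the other lines.

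The 8 genes whose levels ranked most like the mean of the 10 over the 48 libraries, among 15235 genes averaging 1 CPM or more, were Pkd2l2, Neu1, Gal, Atp9a, Stat5a, Aifm3, Stxbp2 and Mical3. Spearman's rho lay between 0.638 (Mical3) and 0.738 (Pkd2l2), as a description over libraries that share lines and groups. Aifm3 had a median of 38.2 CPM in Gfi1 OE and 0.654 CPM in control, and Pkd2l2 had 5.22 CPM in Gfi1 OE and 1.18 CPM in control.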

How the data were processed

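Each deposited file gives raw counts of reads by gene symbol for 1 of 48 libraries of total RNA, which was stranded and paired-end per the labels. The submitters' processing notes name HTSeq, STAR, BWA, limma, CASAVA 1.7, R 3.2.3 and build mm9; their roles, the annotation and the strand setting are not given in the sources used here. Reads with no gene (19.6% to 42.6% per library) stayed out of totals. CPM was computed from totals on genes. Tests used edgeR 4.0.16 in R 4.3.3 (TMM, filterByExpr on the fitted design, quasi-likelihood F-test, Benjamini-Hochberg over all tested genes, threshold 0.05), with residual degrees of freedom of 12 (Gfi1 OE), 14 (3 lines, line as a term), 12 (6 group means) and 6 (set 2). DESeq2 1.42.0, RLE size factors, other filters, each library left out, a replicate block and other library sets were alternatives. The code was tested on simulated data.

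The members and lists were chosen with earlier results of these data known. For the fit over 3 lines 3 groupings of the filter were run, and the choice among them was made after their counts were seen: the fitted design was kept as the usual form for a model with a covariate, and the others are given as alternatives. Named were all 10 genes, up to 4 called genes per list and comparison by size of change, and the 8 genes ranked most alike; 1 listed gene is not reported here by name or in a figure. In set 1 the deviations of same-numbered libraries correlated by 0.12 to 0.31 in line 19554 and 0.2 to 0.49 in line 19568. Numbers were therefore read as pairing them in those lines, while in line 19251 the correlations were -0.24 to -0.03. The main fits leave this pairing out, and the replicate block, which uses it, is given as an alternative. No 2 of 1128 pairs of libraries were identical. Gfi1 OE titles all carry 1 number, so replicates 1 to 8 follow accession order.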

Additional observations from a re-analysis of the deposited data

Results flagged for a closer look

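A library far from the others was sought in 28 cases, each 1 gene in 1 group of 4 to 8 libraries. The cut-off gives about 1 in 20 for normally distributed values. Low counts are not so distributed, and a gene with counts in a single library of its group is always flagged. The count of 12 flagged cases is therefore not set against that rate. In the control libraries of line 19251 these were Msln in replicate 6 (0.342 CPM), Cldn3 in replicate 2 (16.4 CPM), Cldn4 in replicate 5 (0.0346 CPM, 1 count), Krt23 in replicate 4 (0.0278 CPM, 1 count), Krt8, Krt18 and Prom2 in replicate 4 (23.2, 2.81 and 5.6 CPM), and Cdh1 in replicate 6 (0.957 CPM). In Gfi1 OE they were Krt18 in replicate 1 (34.7 CPM) and Cdh1 in replicate 4 (4.99 CPM). Among WT GNP Myc Gfi1 libraries they were Prom2 in replicate 4 (0.0387 CPM) and Pof1b in replicate 1 (4.53 CPM).

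Libraries outside the tests held signal too. Pof1b was at least 2.01 CPM in WT GNP Myc Gfi1 libraries, against 0.0346 to 0.271 CPM in the control of line 19251, and Epcam at least 5.36 CPM, against 0.935 to 4.85 CPM. The library labelled Cas9 replicate 1 of set 2 had 1.95 CPM of Krt8, 2.19 CPM of Pof1b and 6.1 CPM of Epcam, and that labelled Ezh2 KO + Ezh2 OE replicate 3 had 0.812 CPM of Krt8, 2.66 CPM of Pof1b, 2.14 CPM of Epcam and 1.4 CPM of Cdh1. Each is above Cas9 replicates 2 and 3. None of these differences was tested.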

How the results depend on the processing

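Counts of called genes are given, members first. For the Ezh2 KO effect over 3 lines the filter was run with 3 groupings of libraries, chosen after seeing the data: the fitted design called 99 of 17635 genes, the 6 groups 110 of 18514 and the 2 arms 68 of 16461, with 2, 2 and 1 other listed genes and 0 members each time. Among other listed genes there (2 called), DESeq2 called 5, a mean of at least 1 CPM 1, the replicate block 1, and leaving out a library 0 to 3; it was 0 without 19554 Cas9 replicate 2, 19554 Ezh2 KO replicate 2 or 19568 Cas9 replicate 3, 3 without 19251 Cas9 replicate 1, 2 without 19251 Cas9 replicate 2, 19251 Ezh2 KO replicate 3 or 19554 Ezh2 KO replicate 3, and 1 without any other library. In line 19251 DESeq2 called 1 member and 6 other genes, while the replicate block and the line alone called 0 other genes, and leaving out a library 1 to 2 (2 without its Cas9 replicate 2). In line 19554 other genes numbered 6 with DESeq2, 1 with the replicate block and 1 alone, and 1 to 4 with a library left out (4 without 19251 Cas9 replicate 1, 1 without 19554 Cas9 replicate 1 or 3). In line 19568 they numbered 1 with DESeq2 and 2 alone. For the difference between lines DESeq2 called 1 member and 3 other genes, the replicate block 0 other genes, and leaving out a library 1 to 2 (2 without 19251 Cas9 replicate 1). For Cas9 of line 19568 DESeq2 called 3 members and 20 other genes, a mean of at least 1 CPM left 2 members tested and 0 called, and leaving out a library gave 1 to 3 members (3 without 19251 Cas9 replicate 1, 2 without 19554 Cas9 replicate 3) and 8 to 21 other genes (21 without 19251 Cas9 replicate 1, 8 without 19568 Cas9 replicate 1 or 3). No paired analysis was possible for that comparison because replicate blocks lie within lines, nor for Gfi1 OE because its libraries share no numbers with control. For Ezh2 KO in set 2 no low-count filter gave 2 members and 20 other genes, all 12 libraries 2 other genes, and a library left out 1 to 12 (12 without Ezh2 OE replicate 1; 1 without Cas9 replicate 3; 2 without Cas9 replicate 2 or Ezh2 KO replicate 2; 3 without Ezh2 KO replicate 3; 4 without Ezh2 KO replicate 1). For Ezh2 OE no filter gave 1 other gene. For Ezh2 KO + Ezh2 OE no filter gave 1 member and 12 other genes, DESeq2 6, the replicate block 1, all 12 libraries 0, and a library left out 0 to 9 (9 without Ezh2 OE replicate 1, 4 without Ezh2 OE replicate 3, 0 without Ezh2 KO + Ezh2 OE replicate 1 or 2 or Ezh2 KO replicate 2, 1 without Ezh2 KO replicate 1 or 3). For Gfi1 OE other genes numbered 14 to 22 of a main count of 18 with a library left out. Members called with a library left out were 0 to 0 in the Ezh2 comparisons. Causes were not tested. Same-numbered libraries of set 2 correlated by -0.6 to 0.55. With 2 libraries left in Cas9 and in Ezh2 KO + Ezh2 OE, the deviations within each mirror each other. These correlations therefore cannot tell whether the numbers pair the libraries. The replicate block changed no call of a member in either set. Where a set 2 arm was left with 1 library, it was assumed to vary like the others. Low counts limit Cldn4, Krt23, Msln, Cldn3 and Prom2 outside Gfi1 OE.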
